A study of Mus musculus with 62 samples.

Results

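The genes described here are 7 subunits of the GABA A receptor, namely Gabra2, Gabra3, Gabra4, Gabra5, Gabrb1, Gabrb2 and Gabrd. They were taken as a named list and found in the tables by mouse Entrez identifier. All 7 were found in both brain tables, among 17653 genes in the prefrontal cortex table and 17874 in the striatum table. Read counts came from RNA sequencing of tissue punches from 2 brain regions, the prefrontal cortex and the striatum. The animals were female C57BL/6 mice (inbred), which had swallowed the MARBLES mixture, a blend of polychlorinated biphenyls (PCBs, persistent industrial chemicals), at 1 of 3 doses. The vehicle mice, at 0 mg/kg, shared sex, strain and route with the dosed groups and received no PCB. In each region the vehicle group counted 4 libraries, the 0.1 mg/kg group 5, and the 1 mg/kg and 6 mg/kg groups 6 apiece, which made 42 libraries in all. The labels give no age, vehicle, length of exposure or pooling of animals. The number in each library's title is used below as its name. The labels do not say that libraries of a group are separate animals, so p-values measure the spread between these libraries.

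GABA A receptors are chloride channels made of subunits arranged as a ring around a pore, opened by GABA, the main inhibitory transmitter of the adult brain. Alpha and beta subunits together form the GABA sites, and a gamma or delta subunit completes most receptors. Receptors with alpha2 or alpha3 are known from synapses, and many of those with alpha5, or with delta beside alpha4, lie outside synapses and respond to low ambient GABA. The principal neurons of the cortex are glutamatergic, whereas the projection neurons of the striatum release GABA themselves and express delta, alpha2 and alpha4 receptors.

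Total counts were 8.72 to 12.1 M (M, 10⁶ counts) in the prefrontal cortex libraries and 8.28 to 12.02 M in those of the striatum, and the 7 subunits had between 146 and 2019 counts per library. Summed striatal projection neuron markers (9 genes) reached 3258 to 7737 CPM (counts divided by the normalised library size) in the striatum and 1168 to 3740 CPM in the prefrontal cortex. Summed cortical projection neuron markers (8 genes) reached 1492 to 2545 CPM in the prefrontal cortex and 129 to 1857 CPM in the striatum, with striatum libraries 50, 8 and 46 above 1000 CPM. Choroid plexus markers spanned 22.3 to 4366 CPM in the striatum. In the striatum, libraries also fell into separate sets by GC slope, which measures over all genes how a library's departure from the average library tracks the GC content of transcripts (a Spearman correlation). The upper set of 9 libraries (0.25 to 0.43) held every 6 mg/kg library, vehicle libraries 7 and 8 and the 1 mg/kg library 50. The lower set of 12 (-0.57 to -0.03) held every 0.1 mg/kg library, the other 1 mg/kg libraries and vehicle libraries 3 and 4.

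In the mouse assembly GRCm38.p6, Gabra2, Gabra4 and Gabrb1 lie in a cluster on chromosome 5 that also holds Gabrg1. Gabra2 spans chr5:70958392-71095849 on the minus strand, Gabra4 chr5:71569734-71658308 on the minus strand and Gabrb1 chr5:71657921-72149572 on the plus strand. The 5′ ends of Gabra4 and Gabrb1 point at each other and their spans overlap by 388 bases, of which 46 are exonic in both. The other members are Gabra3 (chrX:72432676-72656919, minus), Gabra5 (chr7:57407669-57591016, minus), Gabrb2 (chr11:42419515-42632591, plus) and Gabrd (chr4:155384979-155398098, minus). Gabrd also overlaps Cfap74 over 6000 bases without shared exons. The use of strand in the counting is not given in the sources used here, so reads within the 46 shared bases of Gabra4 and Gabrb1 cannot be told apart.

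Promoter windows from RefSeq (250 bases before to 50 after an annotated transcript start) matched 6 of the 7 members. Gabra3 and Gabrb1 have 2 such windows each and Gabrb2 has 3. The printed starts of Gabra2, Gabra4 and Gabrb1 are the 5′ ends of their gene spans, whereas that of Gabrb2 lies 925 bases inside its span. The start of the Gabra5 window, which is not printed, lies 80957 bases inside. The first window of each chromosome 5 member and of Gabrb2 is printed 5′ to 3′ on the gene's strand, because Gabra4 and Gabrb1 share a locus and Gabrb1 and Gabrb2 varied together. Capitals mark the matches of 3 searched motifs on either strand, so that a match on the opposite strand appears as its reverse complement. They are GCGTG, the core letters bound by the aryl hydrocarbon receptor, a sensor of some PCBs; the GC box GGGCGG, bound by Sp factors; and the TATA box, spelled TATAAA. The motifs do not overlap one another in these windows.
Gabra2, chr5:71095800-71096099, minus strand: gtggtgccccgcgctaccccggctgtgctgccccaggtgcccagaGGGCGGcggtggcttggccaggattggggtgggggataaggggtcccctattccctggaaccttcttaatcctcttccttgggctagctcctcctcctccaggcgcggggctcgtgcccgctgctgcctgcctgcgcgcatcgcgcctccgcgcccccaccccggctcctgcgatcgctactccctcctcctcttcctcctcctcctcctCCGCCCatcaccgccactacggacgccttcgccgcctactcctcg
Gabra4, chr5:71658259-71658558, minus strand: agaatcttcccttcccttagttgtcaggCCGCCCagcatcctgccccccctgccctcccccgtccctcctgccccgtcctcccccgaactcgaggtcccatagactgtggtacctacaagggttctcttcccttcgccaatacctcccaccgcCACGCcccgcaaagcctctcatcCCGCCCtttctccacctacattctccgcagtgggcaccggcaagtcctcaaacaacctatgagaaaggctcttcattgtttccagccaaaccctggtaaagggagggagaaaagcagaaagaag
Gabrb1, chr5:71657671-71657970, plus strand: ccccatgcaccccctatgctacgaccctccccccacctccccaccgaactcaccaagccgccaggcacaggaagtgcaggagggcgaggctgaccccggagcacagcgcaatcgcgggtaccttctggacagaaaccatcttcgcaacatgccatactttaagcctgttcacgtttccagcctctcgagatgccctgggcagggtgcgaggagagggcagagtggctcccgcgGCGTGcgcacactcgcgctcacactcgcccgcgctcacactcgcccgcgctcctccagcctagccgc
Gabrb2, chr11:42420190-42420489, plus strand: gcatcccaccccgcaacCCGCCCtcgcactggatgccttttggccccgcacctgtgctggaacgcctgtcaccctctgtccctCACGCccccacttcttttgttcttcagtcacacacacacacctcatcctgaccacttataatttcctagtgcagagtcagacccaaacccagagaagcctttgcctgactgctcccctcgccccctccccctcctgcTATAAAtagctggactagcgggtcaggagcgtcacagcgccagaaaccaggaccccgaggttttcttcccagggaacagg

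The Gabra2 window held 70.0% G and C, 25 CpG pairs and 2 GGGCGG matches. The Gabra4 window held 58.7% G and C, 1 GCGTG and 2 GGGCGG, and the printed Gabrb1 window 66.0% and 1 GCGTG. The second Gabrb1 window, 42011 bases inside the gene, held 50.3% and 0 matches of the 3 motifs. The printed Gabrb2 window held 59.0% and 1 match of each of the 3 motifs, and its other windows held 0 matches. Over all 32851 windows the median was 52.7% G and C with 7 CpG pairs, and 32.4% of windows held GCGTG, 35.7% GGGCGG and 13.6% TATAAA on either strand. The overlapping windows of Gabra3 were AT-rich by comparison, with 39.3% and 43.0% G and C, no CpG pair and 1 TATAAA each, and the Gabra5 window (56.7%) held none of these motifs. A match is a description of the letters, not a binding site.

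Levels of different subunits were compared as CPM per kilobase of exon, each with its SD over the 4 vehicle libraries. In the prefrontal cortex Gabra3 was highest at 38.8 ± 5.03, followed by Gabrd at 34.9 ± 1.89, Gabrb2 at 24.9 ± 4.10 and Gabra4 at 22.4 ± 2.91. Gabra5 stood at 18.9 ± 2.02, Gabrb1 at 9.28 ± 1.35 and Gabra2 at 7.03 ± 0.735. Gabra3 and Gabrd were within their spread of each other, as were Gabrb2 and Gabra4. In the striatum Gabrd came first at 34.5 ± 10.9 and Gabra3 second at 26.0 ± 4.35, also within their spread. Gabrb2 (19.6 ± 5.46) and Gabra4 (19.5 ± 2.99) were nearly equal there, above Gabra5 (14.04 ± 1.87), Gabrb1 (9.17 ± 1.98) and Gabra2 (6.43 ± 0.450). The order among Gabra3, Gabrd, Gabrb2 and Gabra4 depended on the length used: over the longest transcript, Gabrb2 stood at 39.7 in the prefrontal cortex, next to Gabra3 at 41.6 and above Gabrd at 37.1. Gabra2 was lowest by either length in the prefrontal cortex. Over the longest transcript, however, Gabra2 (9.18 ± 0.960) and Gabrb1 (9.35 ± 1.36) were within their spread of each other there.

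**Figure D1:**
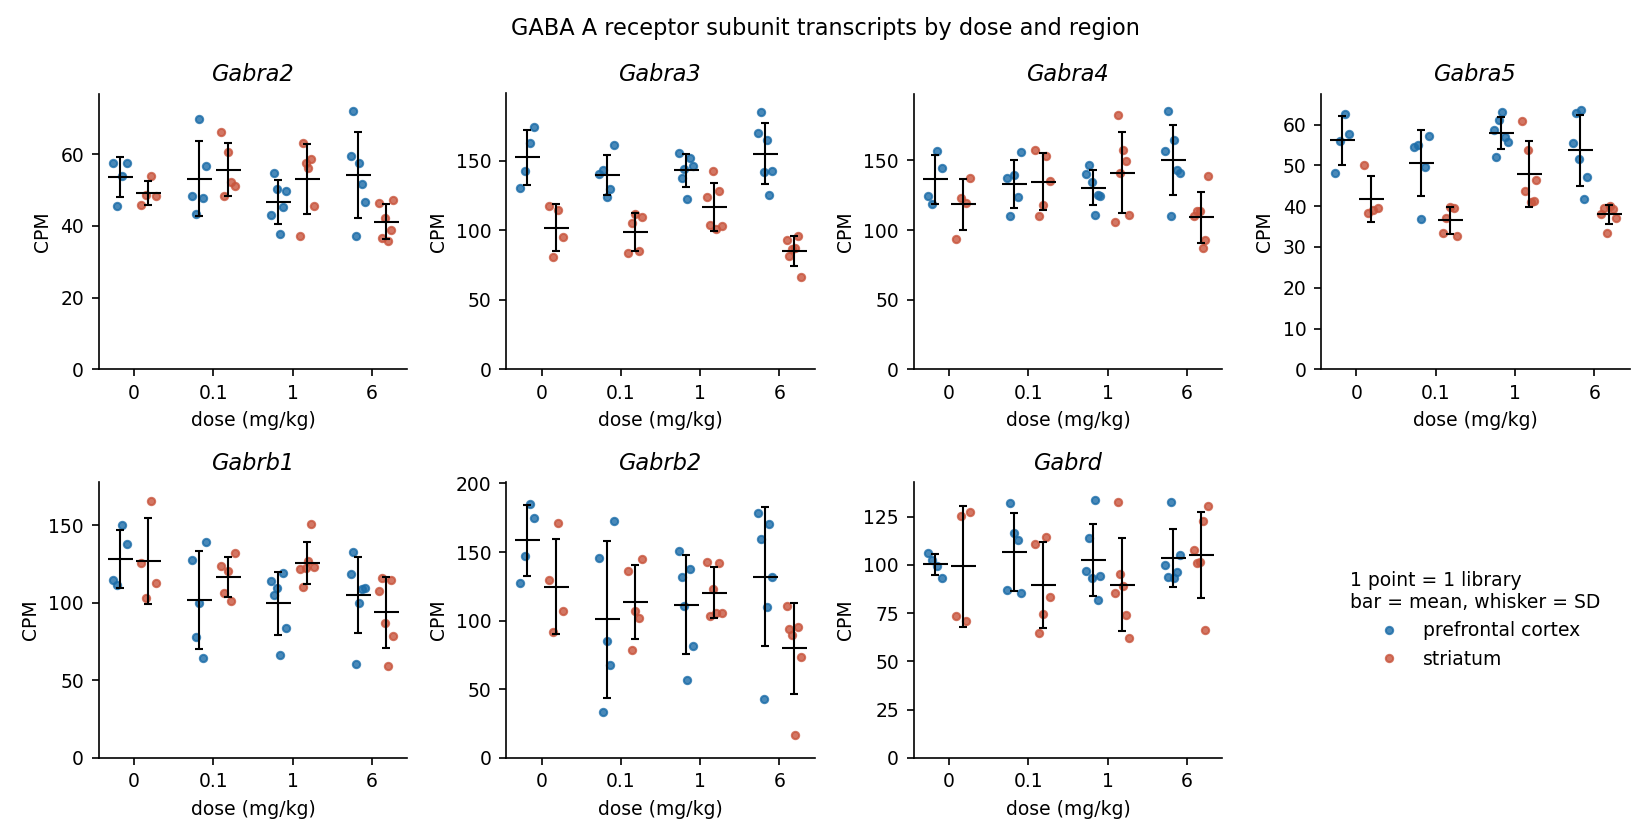
Level of each of the 7 subunits in CPM (linear axis from 0) in every library of the prefrontal cortex and striatum by dose, with the group mean as a bar and the SD as whiskers. The dosed groups overlap with vehicle in every panel. In the striatum the 6 mg/kg libraries lie below the 0.1 mg/kg libraries for Gabra2 (35.7 to 47.3 against 48.3 to 66.2 CPM). They lie below the 1 mg/kg libraries for Gabra3 (66.1 to 95.8 against 101 to 143 CPM) and Gabra5 (33.5 to 40.04 against 40.9 to 61.0 CPM). All 6 mg/kg libraries were in the upper GC set, and all 0.1 mg/kg libraries and 5 of 6 at 1 mg/kg in the lower one. In these contrasts 22.3% and 34.1% of all genes had an unadjusted edgeR p under 0.05. The share of all genes without overlap was not counted.

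Whether PCB dose altered subunit transcripts was asked with edgeR's quasi-likelihood test in each region, with Benjamini-Hochberg adjustment over 14838 prefrontal cortex and 15118 striatum genes. The 3 dose contrasts of a region share the same vehicle libraries. In bulk punches, fewer cells of a type and less RNA per cell cannot be told apart. In the prefrontal cortex no subunit passed an adjusted p of 0.05 at any dose. At 6, 1 and 0.1 mg/kg, 0 of 7 passed in each contrast by edgeR and by DESeq2, and 0 of 7 had an unadjusted p under 0.05. Among all genes, edgeR called 0% at each dose, and 9.27%, 8.29% and 6.43% had an unadjusted p under 0.05. The trend over dose rank gave 0 of 7 by both tools, beside 0.0202% of all genes, and 6 against 0.1 mg/kg gave 0 of 7, beside 0.108%. Neither had a subunit at an unadjusted p under 0.05, beside 9.79% and 10.1% of all genes. For 6 against 1 and 1 against 0.1 mg/kg, added after the data were seen, 0 of 7 passed beside 0% of all genes, and 0 of 7 had an unadjusted p under 0.05, beside 8.56% and 5.27%.

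Of the alpha subunits in the prefrontal cortex, Gabra2 measured 57.5, 45.7, 54.04 and 57.7 CPM in vehicle libraries 8, 7, 4 and 3. Its 6 mg/kg libraries spanned 37.1 to 72.2 CPM with a median of 54.6, on both sides of the vehicle values, and the log2 fold change was 0.01 (95% interval -0.29 to 0.31). Gabra3 measured 130.4, 142, 163 and 174 CPM in vehicle and 125 to 185 CPM at 6 mg/kg (median 154), a log2 fold change of 0.02 (interval -0.19 to 0.24). The groups overlapped throughout for both genes. Gabra4, the partner of delta in many extrasynaptic receptors, measured 125, 119, 157 and 145 CPM in vehicle and 110.2 to 185 CPM at 6 mg/kg (median 149.98). Its log2 change of 0.14 (interval -0.11 to 0.38, edgeR adjusted p 0.759) was the largest upward value of the 7. Gabra5, the extrasynaptic alpha subunit best known from the hippocampus, measured 48.2, 55.96, 62.7 and 57.7 CPM in vehicle and 41.7 to 63.5 CPM at 6 mg/kg, with a log2 fold change of -0.06 (interval -0.31 to 0.18).

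The beta subunits had wider intervals in the prefrontal cortex. Gabrb1 measured 114, 111, 150.04 and 138 CPM in vehicle and 60.8 to 132 CPM at 6 mg/kg (median 109), a log2 fold change of -0.29 (interval -0.71 to 0.13, edgeR adjusted p 0.696). Gabrb2 measured 128, 147, 185 and 175 CPM in vehicle. Its ranges were 33.1 to 172 CPM in the 0.1 mg/kg group, 57.0 to 151 CPM in the 1 mg/kg group and 42.6 to 178 CPM in the 6 mg/kg group. Each dosed group thus reached both into the vehicle range and far below it. The log2 fold changes of Gabrb2 were -0.65, -0.51 and -0.26 at 0.1, 1 and 6 mg/kg, and the interval at 6 mg/kg, -1.08 to 0.55, allowed changes of either sign. Length slope, computed like the GC slope but with transcript length, was 0.15 to 0.46 in the vehicle libraries and -0.58 to 0.41 in the dosed ones. With that slope as a covariate the value for Gabrb2 at 6 mg/kg was 0.04 and that for Gabrb1 -0.10, and with an offset for GC content and length of transcripts they were -0.33 and -0.20. Gabrd, the delta subunit, measured 106, 103, 99.3 and 93.3 CPM in vehicle and 93.1 to 133 CPM at 6 mg/kg (median 98.2), a log2 fold change of 0.05 (interval -0.22 to 0.32).

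In the striatum no subunit differed from vehicle at any dose by the adjusted test, and the values at 6 mg/kg lay mostly below 0. At 6, 1 and 0.1 mg/kg, 0 of 7 passed by edgeR and by DESeq2, beside 0% of all genes by edgeR at each dose. For the 6 mg/kg group, 6 of 7 log2 fold changes were below 0 with a median of -0.25, whereas over all genes the median was 0.01 and 48.3% of values lay below 0. The subunit median was -0.11 with the GC and length offset and -0.11 with the length slope as a covariate, but -0.24 with the GC slope and -0.26 with the GC set as a term. Only Gabrb1 had an unadjusted p under 0.05 there, as did 15.7% of all genes. At 1 mg/kg and 0.1 mg/kg, 0 of 7 had one, beside 7.36% and 2.53% of all genes. For the trend over dose rank, 0 of 7 passed by both tools, beside 0% of all genes by edgeR, and Gabrb1 alone had an unadjusted p under 0.05 (0.0282), beside 13.1%. As a slope over mg/kg in place of rank, 2 of 7 passed, Gabra2 and Gabrb1. The number of all genes passing went from 0 to 1862. On that scale the 6 mg/kg group stands far from the others, and all its libraries are in the upper GC set. No GC or length term was fitted with this slope, so dose and GC set were not separated there. At 1 mg/kg, 4 of 7 values were above 0 (median 0.11) and at 0.1 mg/kg 2 of 7 (median -0.12), so the doses did not share a direction. At 6 mg/kg against vehicle, 8 of 8 cortical projection neuron markers were also below 0 (median -1.12), 7 of 7 oligodendrocyte markers above 0 (median 0.27) and 6 of 9 striatal projection neuron markers above 0 (median 0.13), of which 0 passed. Pan-neuronal markers summed to 2468 to 2768 CPM at 6 mg/kg and 2760 to 3333 CPM in vehicle, with 3 of 4 below 0 and 0 passing. Summed cortical markers spanned 129 to 524 CPM at 6 mg/kg and 152 to 1270 CPM in vehicle, and summed oligodendrocyte markers 6927 to 9655 CPM and 4603 to 6950 CPM. The subunit median was -0.21 without the striatum libraries above 1000 CPM of cortical markers and -0.24 with the striatal marker sum as a covariate, and the part of the oligodendrocyte and pan-neuronal markers was not tested.

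Gabrb1 measured 126, 103, 166 and 113 CPM in striatum vehicle libraries 8, 7, 4 and 3 and 59.3 to 116 CPM at 6 mg/kg (median 97.4). The groups overlapped between 103 and 116 CPM. The log2 fold change was -0.43 (SE 0.154, interval -0.75 to -0.12), with an edgeR p of 0.00938 and an adjusted p of 0.218. Gabrb2 measured 130, 91.4, 171 and 107 CPM in vehicle and 16.8 to 111 CPM at 6 mg/kg (median 91.6), with library 54 far below the rest. Its log2 fold change of -0.64 had an SE of 0.309, the largest of the 7. The interval was -1.28 to 0.00 and the edgeR adjusted p 0.320. Length slopes were lower at 6 mg/kg, -0.64 to 0.05, than in vehicle, -0.08 to 0.33. With the length slope as a covariate the value was -0.11 for Gabrb1 and -1.06e-04 for Gabrb2, and with an offset for GC content and length it was -0.11 and -0.55.

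Among the alpha subunits of the striatum, Gabra3 measured 117, 80.9, 115 and 95.2 CPM in vehicle and 66.1 to 95.8 CPM at 6 mg/kg (median 86.9), which gave -0.26 on the log2 scale (SE 0.128, edgeR adjusted p 0.323). Gabra4 measured 93.7, 123, 119 and 138 CPM in vehicle and 87.0 to 139 CPM at 6 mg/kg, or -0.12 on the log2 scale (SE 0.151, edgeR adjusted p 0.720). Gabra5 measured 50.1, 38.2, 39.1 and 39.7 CPM in vehicle and 33.5 to 40.04 CPM at 6 mg/kg, with a log2 fold change of -0.14 (edgeR adjusted p 0.544). In all of these genes the groups overlapped. Gabrd measured 73.7, 125, 70.8 and 127 CPM in vehicle, a pair of low and a pair of high libraries, and 66.2 to 131 CPM at 6 mg/kg. Its log2 fold change was 0.08 (interval -0.37 to 0.54, edgeR adjusted p 0.879).

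**Figure D2:**
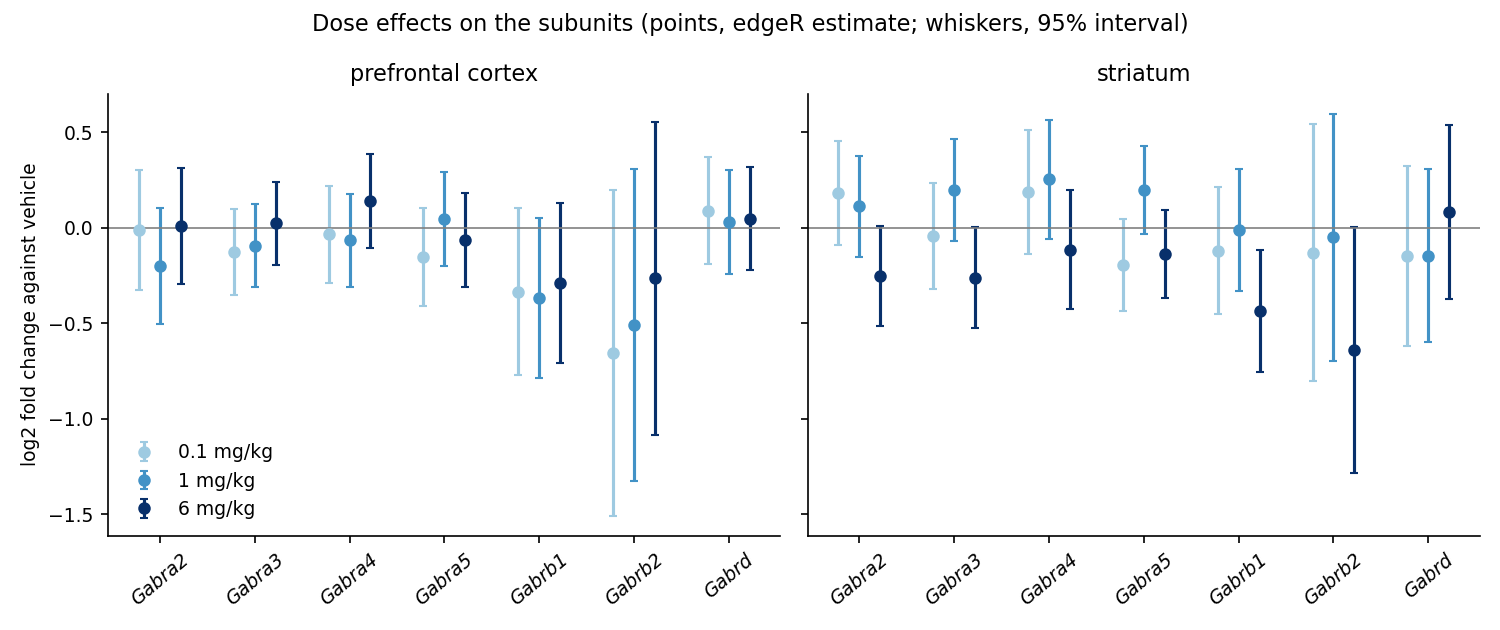
Log2 fold change against vehicle (points) with 95% intervals (bars) for each subunit at 0.1, 1 and 6 mg/kg in the prefrontal cortex and the striatum. The intervals of Gabrb2 are the widest, from -1.51 to 0.20 at 0.1 mg/kg in the prefrontal cortex, and the 6 mg/kg striatum interval of Gabrb1 lies below 0 (-0.75 to -0.12).

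The 6 and 0.1 mg/kg groups of the striatum were also compared directly, and Gabra2 was lower at 6 mg/kg. At 0.1 mg/kg Gabra2 measured 66.2, 48.3, 60.7, 52.4 and 51.1 CPM in libraries 29, 28, 25, 24 and 23. In the 6 mg/kg group it spanned 35.7 to 47.3 CPM with a median of 40.6, and all libraries lay below those at 0.1 mg/kg. Means were 41.2 ± 4.90 CPM (SD, n = 6) and 55.7 ± 7.46 CPM (SD, n = 5), a log2 difference of -0.44 (SE 0.119, interval -0.68 to -0.19, edgeR adjusted p 0.0475). The vehicle libraries, at 45.8, 48.5, 53.9 and 48.4 CPM, overlapped both groups, and the 1 mg/kg libraries spanned 37.1 to 63.2 CPM (median 57.0). Against vehicle, Gabra2 was -0.25 at 6 mg/kg (interval -0.52 to 0.01, edgeR adjusted p 0.334) and 0.18 at 0.1 mg/kg. In this contrast 1 of 7 subunits passed, by edgeR and by DESeq2, beside 2.91% of all genes by edgeR. Gabra4 (-0.30) and Gabrb1 (-0.32) had an unadjusted p under 0.05, as did 22.3% of all genes, and did not pass.

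All 6 mg/kg libraries of the striatum belonged to the upper GC set and all 0.1 mg/kg libraries to the lower one, so dose and GC set cannot be told apart in that contrast. Over all doses Gabra2 spanned 35.7 to 48.5 CPM in the upper set (median 42.3) and 45.6 to 66.2 CPM in the lower one (median 55.1). With the set as a term, fitted from the vehicle and 1 mg/kg libraries, the Gabra2 difference was -0.11 (edgeR adjusted p 0.804), and with a GC and length offset it was -0.19. The call was also lost without 6 mg/kg library 53, 54, 55 or 56 and without 0.1 mg/kg library 23, 24, 25 or 29, at edgeR adjusted p-values of 0.0693 to 0.165, while the difference stayed between -0.37 and -0.47.

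The 6 and 1 mg/kg groups of the striatum, a contrast added after the data were seen, differed in 4 of 7 subunits, all lower at 6 mg/kg. Among all genes 9.38% passed as lower and 18.2% in either direction. Gabra3 measured 101, 103, 103, 124, 128 and 143 CPM in 1 mg/kg libraries 45, 41, 48, 50, 42 and 46, all above the 6 mg/kg libraries (66.1 to 95.8 CPM). Its log2 difference was -0.46 (SE 0.115, interval -0.70 to -0.22, edgeR adjusted p 0.0108). Gabra5 measured 40.9 to 61.0 CPM at 1 mg/kg (median 45.05), just above the highest 6 mg/kg library at 40.04 CPM, a log2 difference of -0.34 (SE 0.100, edgeR adjusted p 0.0247). Gabra2 (-0.37, edgeR adjusted p 0.0308) and Gabrb1 (-0.42, edgeR adjusted p 0.0379) also passed, with libraries that overlapped between the groups. Gabra4 (-0.37) and Gabrb2 (-0.59) had only an unadjusted p under 0.05, as did 34.1% of all genes, and Gabrd measured 0.23. DESeq2 called 5 of 7, with Gabra4, beside 3299 of 14531 genes.

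In this contrast 5 of 6 libraries at 1 mg/kg belonged to the lower GC set, against 0 of 6 at 6 mg/kg. With the GC set as a term 1 of 7 passed, Gabra5 (-0.57), beside 349 of 15118 genes, and Gabra3 measured -0.46 (edgeR adjusted p 0.166). With the GC and length offset 0 of 7 passed, beside 261 genes, at -0.26 for Gabra3 and -0.29 for Gabra5, and with the length slope 0 of 7, beside 338 genes, at -0.38 and -0.34. The count of 4 fell to 2 without 6 mg/kg library 54 or 55 or 1 mg/kg library 42 or 45, and to 1, Gabra3, without 1 mg/kg library 46, in fits where 1671 to 2213 genes passed. Gabra5 did not pass without library 46 or 55, at -0.30 each. The count of subunits also fell in a fit of the 2 groups alone and with the library GC slope, as listed in the closing section. Markers of projection neurons also moved in this contrast: 4 of 8 cortical markers passed as lower at 6 mg/kg and all 8 were below 0 (median -1.62), and 2 of 9 striatal markers passed as higher (median 0.43). Pan-neuronal markers summed to 2468 to 2768 CPM at 6 mg/kg, below the 2833 to 3830 CPM at 1 mg/kg, with 2 of 4 passing as lower, and their part was not tested. Without striatum libraries 8, 46 and 50, high in cortical markers, 3 of 7 subunits passed, Gabra2, Gabra3 (-0.36) and Gabra4, beside 2960 of 15184 genes, and Gabra5 measured -0.18 (edgeR adjusted p 0.122). With the striatal marker sum as a covariate 2 of 7 passed, Gabra2 and Gabra4, beside 2665 genes, and Gabra3 and Gabra5 measured -0.26 and -0.22. Between 1 and 0.1 mg/kg 0 of 7 passed, beside 0.00661% of all genes. Gabra5 alone had an unadjusted p under 0.05, as did 9.64% of all genes, at 0.39 (edgeR adjusted p 0.178), and spanned 32.7 to 39.8 CPM at 0.1 mg/kg, below every 1 mg/kg library. In that contrast 8 of 8 cortical projection neuron markers were above 0 (median 1.60), 7 of 8 with an unadjusted p under 0.05 and 0 passing, and their part was not tested.

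Striatum and prefrontal cortex were compared at each dose in a joint fit of 15402 genes, on a common scale, and Gabra3 and Gabra5 were lower in the striatum at every dose. In vehicle, Gabra3 measured 134, 146, 168 and 179 CPM in prefrontal cortex libraries 8, 7, 4 and 3 and 114, 78.8, 112 and 92.0 CPM in the striatum libraries of the same numbers. No striatum library reached the lowest prefrontal cortex library. Means were 157 ± 20.5 and 99.0 ± 16.7 CPM (SD, n = 4 each), a log2 difference of -0.66 (SE 0.131, edgeR adjusted p 2.05e-04). Gabra5 measured 49.4, 57.6, 64.7 and 59.3 CPM in the prefrontal cortex and 48.6, 37.2, 38.2 and 38.3 CPM in the striatum. The groups did not overlap, although striatum library 8 came close. Means were 57.8 ± 6.34 and 40.6 ± 5.35 CPM (SD, n = 4 each), a log2 difference of -0.51 (SE 0.127, edgeR adjusted p 0.00271). These 2 of 7 subunits passed, both lower in the striatum, where 10.7% of all genes passed as lower and 21.4% in either direction. DESeq2 called the same 2 genes, while the shares of all genes given here are those of edgeR.

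At 0.1 mg/kg the log2 difference was -0.58 for Gabra3 and -0.55 for Gabra5, and at 1 mg/kg it was -0.37 (edgeR adjusted p 0.00818) and -0.35 (edgeR adjusted p 0.00856). No other subunit passed at these doses, beside 28.8% and 26.7% of all genes in either direction. Both 1 mg/kg calls were lost without the 4 striatum libraries above 1000 CPM of choroid plexus markers (28, 41, 45 and 52), of which 41 and 45 are 1 mg/kg libraries, at -0.28 for Gabra3 (edgeR adjusted p 0.0870) and -0.30 for Gabra5 (edgeR adjusted p 0.0910). In striatum libraries 50, 46 and 8, whose summed cortical markers exceeded 1000 CPM, Gabra5 was highest of all striatum libraries.

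At 6 mg/kg, 5 of 7 subunits were lower in the striatum, where 24% of all genes passed as lower and 48.1% in either direction. Gabra3 spanned 130 to 190 CPM in the prefrontal cortex and 63.6 to 93.0 CPM in the striatum, without overlap, a log2 difference of -0.96 (SE 0.108, edgeR adjusted p 2.04e-09). Gabra5 differed by -0.59 (edgeR adjusted p 1.09e-05), Gabra4 by -0.55 (edgeR adjusted p 3.79e-04) and Gabra2 by -0.49 (edgeR adjusted p 0.00195). Gabrb2 differed by -0.82, with an SE of 0.332 and an edgeR adjusted p of 0.0408. That call was lost without prefrontal cortex library 52, 53, 56 or 58 or striatum library 52 or 54, and in a fit of the 6 mg/kg groups alone (edgeR adjusted p 0.0696). The difference was -0.62 without striatum library 54 and -0.71 to -0.82 in those other fits, while the size of the difference was larger without prefrontal cortex library 55. With the GC set as a term 2 of 7 passed, Gabra3 and Gabra5, beside 4129 of 15402 genes, and the values were -0.19 for Gabra4, -0.14 for Gabra2 and -0.77 for Gabrb2. Gabrb1 and Gabrd passed at no dose, and both differed by -0.10 in vehicle, with intervals of -0.52 to 0.32 and -0.51 to 0.32.

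**Figure D3:**
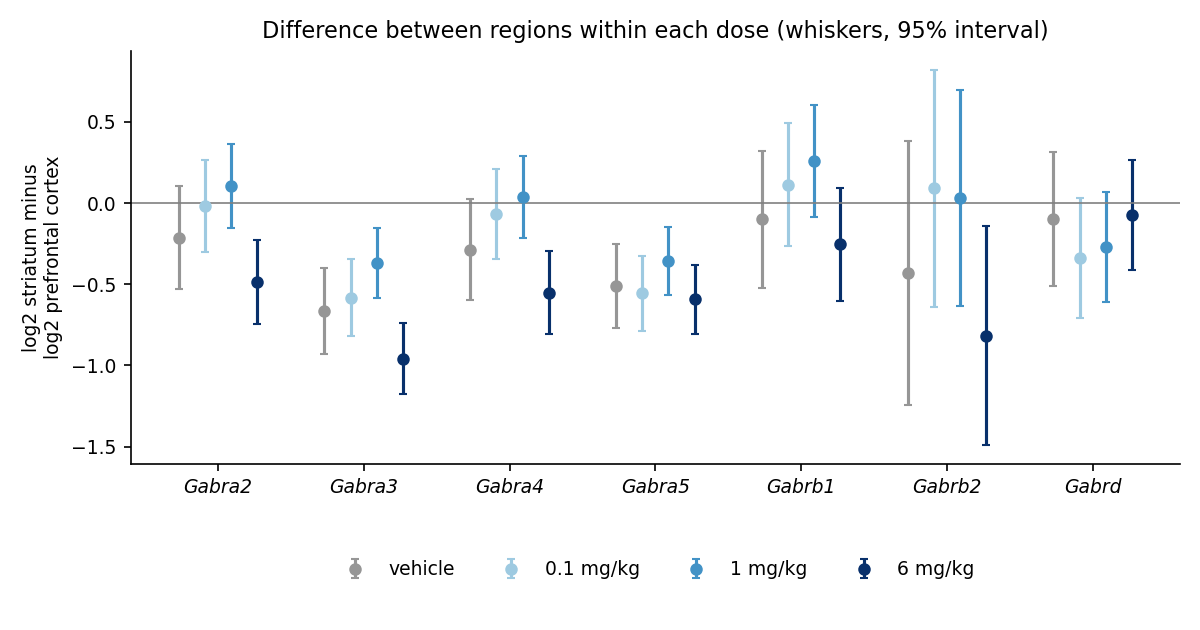
Log2 difference, striatum minus prefrontal cortex, for each subunit at each dose, with 95% intervals, from the joint fit. Gabra3 lies between -0.96 and -0.37 and Gabra5 between -0.59 and -0.35 at every dose, with intervals below 0, while the vehicle intervals of the other 5 subunits include 0.

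Whether 6 mg/kg acted differently in the regions was tested as an interaction against vehicle. No subunit passed by edgeR or DESeq2 and 0 of 7 had an unadjusted p under 0.05. Among all genes 0% passed, and 6.85% lay under 0.05 without adjustment. The interaction was -0.29 for Gabra3 (SE 0.169, interval -0.64 to 0.05, edgeR adjusted p 0.727) and -0.39 for Gabrb2 (interval -1.44 to 0.67, edgeR adjusted p 0.868). The larger number of subunits passing at 6 mg/kg is therefore not shown to be a different effect of the dose.

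Levels of cell type markers differed between the punches beside these values. In vehicle, 8 of 9 striatal projection neuron markers were higher and 7 of 8 cortical projection neuron markers lower in the striatum. All 7 oligodendrocyte markers were higher there. Among all genes, 10.6% passed as higher in the striatum and 10.7% as lower, and 47.5% of values lay below 0. Striatal markers summed to 3740 CPM in prefrontal cortex library 8, above striatum libraries such as 8 (3588 CPM) and 50 (3258 CPM). No prefrontal cortex library was left out for its markers. Pan-neuronal markers summed to 2433 to 3830 CPM in the striatum and 4277 to 5252 CPM in the prefrontal cortex. Their part in the regional differences of the subunits was not tested.

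The subunits differed in how much they varied between libraries. Gabrb2 varied most, from 33.1 to 185 CPM in the prefrontal cortex (a coefficient of variation of 37.5%) and from 16.8 to 171 CPM in the striatum (29.7%). Library 54 gave the striatum minimum, with 146 counts. Gabrb1 varied by 23.3% and 19.9% in the respective regions and Gabrd by 14.8% and 24.8%. The alpha subunits varied by 11.7% to 17.5% in prefrontal cortex libraries and by 16.5% to 19.6% in striatum libraries.

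Correlations were computed over 21 libraries of a region after the dose-group means were removed, with permutation p-values adjusted over 42 pairs of subunits or 70 relations to library measures. The beta subunits varied together: Gabrb1 and Gabrb2 had r = 0.90 and rho = 0.91 in the prefrontal cortex and r = 0.84 and rho = 0.78 in the striatum. Without the 2 farthest libraries r was 0.91 and 0.79, and the adjusted permutation p was 1.40e-04 for r in both regions. Both followed the length slope. For Gabrb2, r with that slope was 0.95 (rho 0.98) in the prefrontal cortex and 0.86 (rho 0.85) in the striatum, with 0.92 and 0.76 without the 2 farthest libraries. For Gabrb1 it was 0.91 (rho 0.91) and 0.81 (rho 0.76), with 0.86 and 0.72. The adjusted permutation p for each r was 1.00e-04, and the raw p of 1.00e-05 is the smallest that 100000 permutations can give. The slope was computed over all genes of the same libraries, these 2 included.

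In the prefrontal cortex Gabrd ran opposite to the beta subunits, with r = -0.81 and rho = -0.63 to Gabrb2 and r = -0.79 and rho = -0.73 to Gabrb1 (adjusted permutation p 1.80e-04 and 1.40e-04 for r). Without the 2 farthest libraries r was -0.72 and -0.66. Gabrd was also negatively related to the length slope there (r = -0.79, rho = -0.67, -0.68 without the 2 farthest, adjusted permutation p 2.33e-04). In the striatum Gabrd and Gabrb2 had r = -0.28 and rho = -0.38 (adjusted permutation p 0.349), and r without the 2 farthest was -0.21. Gabrd and Gabrb1 had r = -0.56 and rho = -0.62 there (-0.48 without the 2 farthest, adjusted permutation p 0.0176).

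The head-to-head neighbours Gabra4 and Gabrb1, whose windows are printed above, varied together in the prefrontal cortex, with r = 0.82 and rho = 0.77 (0.78 without the 2 farthest, adjusted permutation p 1.40e-04). In the striatum their r was 0.01 and rho -0.14 (-0.24 without the 2 farthest, adjusted permutation p 0.950). The 2 regional values were not tested against each other. Gabra4 followed the GC slope in the prefrontal cortex, with r = -0.94 and rho = -0.95 (-0.92 without the 2 farthest, adjusted permutation p 1.00e-04). Gabra2 and Gabra4, both known from striatal projection neurons, had r = 0.81 and rho = 0.78 in the prefrontal cortex and r = 0.73 and rho = 0.70 in the striatum. Without the 2 farthest libraries r was 0.70 and 0.62, with adjusted permutation p of 1.40e-04 and 9.80e-04. Gabra2 was also related to the GC slope in the prefrontal cortex (r = -0.73, rho = -0.73, -0.68 without the 2 farthest, adjusted permutation p 0.00115). The striatum libraries fell into separate GC sets, so no pooled r with GC slope is given for them. The part of GC and length in these pairs was not tested.

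Striatum libraries also fell into separate sets by their summed striatal projection neuron markers, 10 libraries at 3258 to 4403 CPM and 11 at 5574 to 7737 CPM. Gabrd spanned 62.0 to 95.1 CPM (median 73.8) in the lower set and 83.4 to 133 CPM (median 114) in the upper one. The low and high vehicle pairs of Gabrd divided between these sets. Gabra4 had medians of 114 and 135 CPM, and Gabra3 went the other way, with medians of 113 and 86.7 CPM. Within the upper set r between Gabrd and the markers was 0.64 (rho 0.71, 0.55 without the 2 farthest, permutation p 0.0317 and 0.203 after adjustment over 14 relations). Within the lower set it was -0.42 (rho -0.33, -0.14 without the 2 farthest, adjusted permutation p 0.530). None of the 14 within-set relations passed the adjustment. The lower set held 5 of 6 libraries at 1 mg/kg, 1 of 6 at 6 mg/kg, 2 of 5 at 0.1 mg/kg and 2 of 4 in vehicle. In the striatum Gabra5 followed the summed cortical markers (r = 0.66, rho = 0.58, 0.57 without the 2 farthest, adjusted permutation p 0.00461 for r). It also ran opposite to the summed oligodendrocyte markers (r = -0.58, rho = -0.48, -0.35 without the 2 farthest, adjusted permutation p 0.0199 for r).

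**Figure D4:**
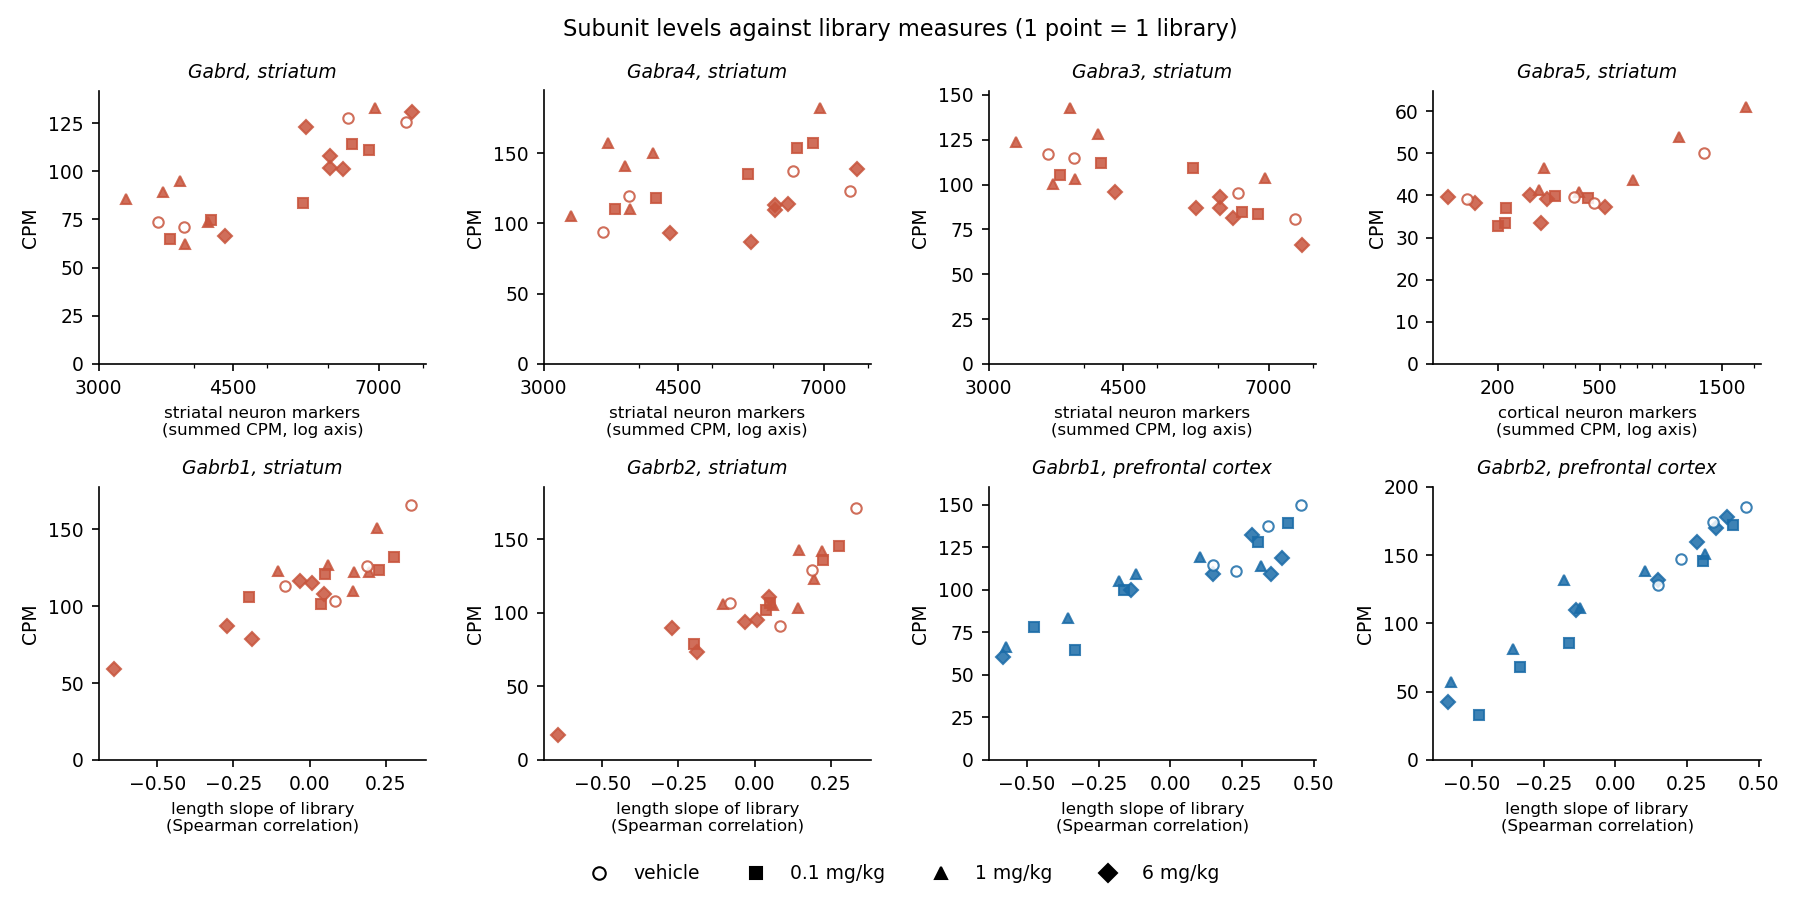
CPM of single subunits (linear axes from 0) against summed marker levels (log axes) or the length slope, with 1 point per library and dose shown by marker shape. Gabrd is higher in the set of striatum libraries above 5574 CPM of striatal markers (median 114 against 73.8 CPM), and Gabrb1 and Gabrb2 rise with the length slope in both regions, down to 16.8 CPM of Gabrb2 in striatum library 54.

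Of 12 other GABA A subunit genes listed, 6 were tested in the prefrontal cortex, while the striatum fit and the joint fit each tested 8. None passed at any dose against vehicle by edgeR, and at 6 mg/kg 0 of 6 and 2 of 8 had an unadjusted p under 0.05, beside 9.27% and 15.7% of all genes. Between regions in vehicle, 2 were higher and 2 lower in the striatum of the 6 that passed the count filter in each region by itself, beside 10.6% and 10.7% of all genes. Gabre, the epsilon subunit, passed the filter only through the striatum, so its values are a description. It was at 0.348 ± 0.351 CPM in the prefrontal cortex (1 to 8 counts per vehicle library) and 9.14 ± 3.78 CPM in the striatum (52 to 148 counts, SD, n = 4 each). Its neighbour on the X chromosome, Gabrq (theta), was at 1.80 ± 1.18 and 21.05 ± 9.15 CPM, a log2 difference of 3.58 (edgeR adjusted p 6.06e-05). Gabrg1 (gamma1), the neighbour of Gabra2, was at 23.3 ± 3.01 and 47.5 ± 17.0 CPM, a log2 difference of 1.03 (edgeR adjusted p 0.00106). In the same clusters Gabra3, beside Gabre and Gabrq, was lower in the striatum, and Gabra2, beside Gabrg1, measured -0.21. Gabrg3 (0.39) was also above 0 and did not pass. Gabrr2, which likewise passed the filter only through the striatum, had 0 to 5 counts per vehicle library in the prefrontal cortex and 8 to 14 in the striatum.

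The other genes of GABA signalling did not pass at any dose against vehicle by edgeR. Of 9 genes for synthesis, packaging, uptake and breakdown of GABA, 8 were higher in the striatum in vehicle and 0 lower, beside the same shares of all genes. They included the vesicular transporter Slc32a1 (log2 difference 1.39), the glutamate decarboxylases Gad2 (1.28) and Gad1 (0.67), the GABA transporters Slc6a11 (1.40) and Slc6a12 (1.56), the transaminase Abat (0.85) and the dehydrogenase Aldh5a1 (0.36). At 6 mg/kg against vehicle, 0 of these 9 had an unadjusted p under 0.05 in either region. Slc6a12 was near the floor, with 4 to 30 counts per prefrontal cortex library and 5 to 50 per striatum library over all doses. Its highest striatum value, 4.99 CPM beside a median of 1.25 CPM, was in vehicle library 8. Of 18 genes of the inhibitory postsynapse and receptor trafficking, 2 were higher in the striatum in vehicle, Mdga1 (0.66) and Clptm1 (0.30), and 1 was lower, Dmd (-0.57), which encodes dystrophin, so that the share passing as higher was close to that of all genes. The scaffold gephyrin, Gphn, differed by -0.06. At 6 mg/kg, 3 of 18 had an unadjusted p under 0.05 in the prefrontal cortex and 2 of 18 in striatum libraries, all below 0, beside 9.27% and 15.7% of all genes in either direction. The smallest p-values belonged to Trak1 (-0.20, edgeR adjusted p 0.470) and Lhfpl4 (-0.16) in the prefrontal cortex and to Dmd (-0.46, edgeR adjusted p 0.214) and Mdga2 (-0.33) in the striatum.

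Of 6 genes of the GABA B receptor, 2 were higher in the striatum in vehicle, Kctd8 (1.29) and Kctd12 (0.45), and 2 lower, the receptor subunit Gabbr2 (-1.02) and the auxiliary subunit Kctd16 (-1.05), beside the same 10.6% and 10.7% of all genes. With 6 mg/kg, 0 of 6 had an unadjusted p under 0.05 in either region. Of 4 chloride transporters and channels, which set how GABA A currents flow, 0 passed between regions in vehicle. At 6 mg/kg against vehicle, 1 of 4 had an unadjusted p under 0.05 in the striatum, below 0, and 0 of 4 in the prefrontal cortex, beside 15.7% and 9.27% of all genes.

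The genes whose log2 CPM pattern was most like that of a member were taken by r over the 21 libraries of a region after the dose-group means were removed, and are given as a description. For Gabrb2 they were Faxc (0.98) and Spag9 (0.98) in the prefrontal cortex and included Arhgef12 (0.97) in the striatum. For Gabrb1 they were, in the same order of regions, Plppr4 (0.97) and Samd12 (0.97), and Usp34 (0.95) and Camta1 (0.95). For Gabra4 they were Ppp4r3b (0.96) and Dnm1l (0.95), and Rgs7bp (0.96) and Ivns1abp (0.94). For Gabrd they were Rpl29 (0.93) and Ubxn6 (0.89), and Tmod1 (0.95) and Hey1 (0.92). Among the 10 most similar genes of each region, Faxc (0.97) also stood on the striatum list of Gabrb2 and Rtn3 (0.76) on that of Gabra3. For Gabra2 they were Ccdc62 (0.88) and Gpm6b (0.87), and Cog5 (0.88) and Zfp280d (0.85). For Gabra3 they were Usp46 (0.91) and Rtn3 (0.90), and Cbln2 (0.84) and Car10 (0.77), and for Gabra5 Syt16 (0.84) and Vxn (0.81), and Trim3 (0.87) and Blnk (0.87). All genes of a library share its depth and its GC and length slopes, and the part of these in the values was not tested.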

How the data were processed

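For each brain region the authors deposited raw read counts by Entrez gene, and no listed gene totalled under 10 counts. HISAT2, FastQC and the build mm10 are named per the submitters' processing notes, without versions. Which program counted the reads, with which annotation and whether by strand, is not given in the sources used here. Per the labels' protocols, mRNA was enriched either through poly(A) selection or by ribosomal depletion, without saying which. Liver libraries were not used here.

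Counts were fitted with edgeR 4.0.16 (R 4.3.3; TMM scaling, filterByExpr with a minimum count of 10, robust quasi-likelihood, Benjamini-Hochberg threshold 0.05), with all groups of a region in 1 fit, and all 42 libraries in a joint fit. CPM is TMM-scaled, with a prior count of 2 on the log2 scale. Symbols, coordinates and promoters came from RefSeq GRCm38.p6, which named 99.97% and 99.95% of prefrontal cortex and striatum identifiers. Transcript GC and length came from GENCODE vM21.

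The members and lists were chosen with earlier results of these data known. Members are named throughout. Overlap between groups was examined for the subunits only, so the share of all genes without overlap is not known. Other GABA A subunits were named where tested, and genes of the other lists where they passed in vehicle between regions, or by smallest p at 6 mg/kg, at most 4 per region. Gphn was chosen after its values were seen. Of the tested GABA A subunits 3 were counted and, like some other genes these rules select, are not reported by name. Simulated counts had 200 genes changed 2-fold. For 6 mg/kg against vehicle, 92.5% were recovered in the prefrontal cortex (14734 genes) and 82.5% in the striatum (15009 genes). For 6 against 0.1 mg/kg in the striatum 86.5% were recovered (15015 genes). It was 83.5% for the regions in vehicle (15249 genes) and 76.5% for the interaction (15245 genes). In the same order, 3.65%, 9.84%, 3.89%, 6.18% and 6.13% of the calls were false. A 2-fold change exceeds every dose value given above for the subunits. The simulated libraries carried no GC or length slope, so these shares do not carry over to the subunit calls. Alternatives were DESeq2 1.42.0, an unfiltered fit, median-ratio size factors, a GC and length offset, 1 surrogate variable (sva 3.50.0), the compared groups alone, a slope over mg/kg, the title number as a block, and each library left out. Contrasts of 6 against 1 and 1 against 0.1 mg/kg, library slopes, marker scores, the GC set and removal of marker-high libraries were chosen after seeing the data. Permutation tests and figures used Python 3.11.15, numpy 2.4.6, scipy 1.17.1, pandas 2.3.3 and matplotlib 3.10.9.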

Additional observations from a re-analysis of the deposited data

Results flagged for a closer look

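Gabrd in the prefrontal cortex at 6 mg/kg had 1 library far from the others. Library 55 measured 133 CPM and the other 5 libraries 93.1 to 105 CPM, so the gap took 0.689 of the group's range. Library 55 also had the lowest length slope of the prefrontal cortex (-0.58). With that slope as a covariate the Gabrd value at 6 mg/kg against vehicle was -0.075 in place of 0.046.

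Gabra5 in the striatum vehicle group was highest in library 8, at 50.1 CPM, against 38.2 to 39.7 CPM in the other 3 libraries, a gap of 0.879 of the range. That library's summed cortical projection neuron markers stood at 1270 CPM. Over 56 groups tested, chance would flag about 2.8, at 1 in 20, and 2 were flagged.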

How the results depend on the processing

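The subunit count of 1 of 7 in the striatum for 6 against 0.1 mg/kg was 0 with the GC and length offset (Gabra2 -0.19), the library GC slope (-0.14), the library length slope (-0.33) or the GC set (-0.11), 2 with the striatal projection neuron score (Gabra4 joined at -0.40), and 0 to 1 with single libraries left out. For 6 against 1 mg/kg the count of 4 was 0 with the offset or length slope, 1 with the library GC slope, the GC set or the 2 groups alone, 2 with the striatal score, and 1 to 5 with single libraries left out. The striatum trend gave 2 of 7 (Gabra2 and Gabrb1) as a slope over mg/kg, where the count over all genes went from 0 to 1862. That slope was not fitted with a GC or length term. Between regions at 6 mg/kg the count of 5 fell to 3 with the offset (Gabra2 -0.05; 6765 of 15402 genes) and to 2 with the GC set (4129 genes), and Gabrb2 did not pass within the 6 mg/kg libraries alone (adjusted p 0.0696). At 1 mg/kg it was 0 without the striatum libraries high in choroid plexus markers (2472 of 15334 genes). The genes called for 6 against 0.1 mg/kg in the striatum numbered 440. They numbered 1098 with DESeq2, 1226 with 1 surrogate variable, 56 with the offset and 10 with the GC set. For the library slopes, the striatal score and single libraries left out they are not given. The subunit counts of that contrast there have no background beside them. For 6 against 1 mg/kg the genes called numbered 2755, but 1514 with the 2 groups alone and 261 with the offset. They numbered 151 with the GC slope, 338 with the length slope and 349 with the GC set. The causes were not tested.

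No reversed value passed the threshold. At 6 mg/kg against vehicle in the prefrontal cortex these were Gabra2 -0.042 and Gabra3 -0.054 (offset), Gabra2 -0.13 and Gabra3 -0.047 (GC slope), Gabrd -0.036 (surrogate variable), Gabrb2 0.043 and Gabrd -0.075 (length slope), and Gabra2 -0.032 (striatal score). In the striatum they were Gabrd -0.056 (offset), -0.016 (length slope), -0.071 (striatal score) and -0.039 (without cortical-marker-high libraries), and Gabra4 0.11 (GC slope) and 0.067 (GC set). For 6 against 0.1 mg/kg they were Gabra4 0.020 and Gabra5 -0.17 (GC slope), Gabra4 0.052 and Gabra5 -0.23 (GC set), and Gabrb2 0.014 (length slope). Between regions they were Gabrb1 0.060 in vehicle and 0.15 at 6 mg/kg (offset) and Gabrd 0.022 in vehicle (without cortical-marker-high libraries). For the interaction they were Gabra2 0.0098, Gabrb1 0.093 and Gabrd -0.10 (offset), Gabra5 0.014 and Gabrd -0.10 (without cortical-marker-high libraries), and Gabrd -0.051 (without choroid-plexus-high libraries).

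With single libraries left out, the prefrontal cortex values at 6 mg/kg ranged from -0.090 to 0.10 for Gabra2, -0.038 to 0.10 for Gabra3, -0.12 to 0.0014 for Gabra5 and -0.037 to 0.081 for Gabrd, and Gabrd in the striatum from -0.055 to 0.22. Between regions Gabrd ranged from -0.24 to 0.033 in vehicle and from -0.14 to 0.021 at 6 mg/kg, and the interaction from -0.11 to 0.16 for Gabrd, -0.15 to 0.014 for Gabra5 and -0.27 to 0.0020 for Gabrb1.

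The title numbers recur across regions and were taken as numbers only. The mean correlation of same-numbered libraries was 0.113 (-0.091 to 0.237), and that with other libraries of the same group was -0.023. Of 21 prefrontal cortex libraries, 12 correlated best with their own number among the striatum libraries of their group. The main joint fit treated all libraries as independent. With the replicate block the subunits passing between regions numbered 2, 2, 2 and 5 in vehicle and at 0.1, 1 and 6 mg/kg and 0 for the interaction (3598, 4815, 4439, 7748 and 0 of 15402 genes), and Gabra3 in vehicle was -0.67. The lowest subunit count was 146, for Gabrb2 in striatum library 54.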
